A study of Mus musculus with 9 samples.

Results

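Regions of open chromatin that carried a peak in all 5 libraries of long-term blood stem cells (LT-HSCs) and in none of the 4 libraries of multipotent progenitors (MPPs) are described here. They were found by merging peaks of all 9 lists that overlapped by 1 bp or more. This gave 117465 regions, of which 230 met the rule, 14498 had a peak in all 5 LT-HSC libraries and 13908 in all 9. Accessibility was measured by ATAC-seq, which uses a transposase to tag DNA that is not packed away, on bone marrow cells of C57BL/6 mice. Marrow from pooled animals was depleted of lineage-positive cells and then sorted by flow cytometry. LT-HSCs lacking both RXRα and RXRβ (KO) gave libraries KO 1, KO 2 and KO 4, and wild-type (WT) LT-HSCs gave WT 2 and WT 3. MPPs gave KO 1, KO 2, WT 1 and WT 2. Neither the age of the mice nor the way the receptors were deleted is stated by the labels. No label says that replicates came from separate pools, so p-values reflect only how far these libraries differ within a group, which may be technical.

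LT-HSCs are the rare, mostly quiescent cells that can rebuild the whole blood system after transplantation, and MPPs are their cycling progeny with little self-renewal. Enhancers, which are short stretches of open chromatin away from gene starts, differ more between related blood cells than promoters do. The retinoid X receptors are nuclear receptors that bind DNA as partners of the retinoic acid, vitamin D, liver X and peroxisome proliferator-activated receptors. The series asked what their loss does to stem cell chromatin. The regions were chosen by the presence and absence of called peaks in these same libraries, so the difference between LT-HSCs and MPPs is a description and was not tested. What the rule did not use is position, the strength of the peaks in KO against WT LT-HSCs, and the regions just outside the rule.

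The lists held 22690 to 71586 peaks in LT-HSCs and 78189 to 86353 in MPPs, and a region held by the shortest LT-HSC list had to be among its 22690 peaks. Of the 20 regions assigned to Rxra, LT-HSC KO 1, KO 2 and KO 4 held 0, 3 and 15, WT 2 and WT 3 held 11 and 4, and the MPP libraries 16 to 18. No label states which segments were deleted, so these peaks do not check the genotype labels. Peak strength was ranked over the 14498 shared regions in each LT-HSC library. Across these regions, which share the libraries and their depth, Pearson's r was 0.853 between KO 1 and KO 2. The library labelled LT-HSC KO 4 had r = 0.873 with WT 2 and 0.771 with WT 3, but 0.527 with KO 1 and 0.614 with KO 2. It thus stood nearer to the WT libraries than to the others of its label. The group results on genotype are given with and without it. The percentiles that singled it out are those compared by genotype, so results without it are descriptions only. Whether its label is right was not tested. Regions assigned to 10 LT-HSC marker genes (such as Procr, Fgd5 and Hlf) were held in 60.9% to 67.0% by the MPP libraries, where all analysed regions were held in 78.1% to 84.7%. In the LT-HSC libraries the shares were 16.5% to 76.5%, against 22.7% to 65.5%. They were above that of all analysed regions in KO 4 and WT 2 and below it in KO 1, KO 2 and WT 3. For 5 MPP marker genes the shares were 17.4% to 67.4% in LT-HSCs and 87.0% to 91.3% in MPPs. T cell, B cell, and stromal and endothelial markers had 16.0% to 60.0%, 12.5% to 46.9% and 7.69% to 64.1% in LT-HSCs. In MPPs they had 72.0% to 88.0%, 68.8% to 87.5% and 74.4% to 92.3%. For 4 mature myeloid marker genes the shares were 3.23% to 41.9% in LT-HSCs and 80.6% to 93.5% in MPPs. For 4 erythroid marker genes they were 22.2% to 77.8% and 72.2% to 77.8%, higher than for the LT-HSC markers in every LT-HSC library. No LT-HSC-only region was assigned to the T cell, B cell, mature myeloid, erythroid or stromal and endothelial markers used for this check, and their part in the results was not tested.

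Of 218 regions on the chromosomes with start sites in the RefSeq table, 7 contained an annotated transcription start site (build GRCm38.p6), and 5 of these belonged to protein-coding genes. The upstream windows of the 5 genes are shown because there an LT-HSC-only region coincides with the promoter of a protein-coding gene. Sequence could also be read for the windows of the non-coding genes Gm40822 and Gm35922, which are not shown. Each line gives 250 bases that end just before the start site, 5′ to 3′ on the strand of the gene, which is minus for all 5. Capitals mark matches to 9 short motifs on either strand. Pdk4 (chr6:5496279-5496528) encodes a kinase that restrains the entry of pyruvate into the citric acid cycle. Armh4 (chr14:49783384-49783633) encodes a membrane protein. Acox2 (chr14:8258840-8259089) encodes a peroxisomal oxidase of bile acid and branched fatty acid breakdown. Zim1 (chr7:6696433-6696682) is an imprinted zinc finger gene, and Lrrtm3 (chr10:64090256-64090505) encodes a synaptic adhesion protein and lies within the gene Ctnna3.
Pdk4: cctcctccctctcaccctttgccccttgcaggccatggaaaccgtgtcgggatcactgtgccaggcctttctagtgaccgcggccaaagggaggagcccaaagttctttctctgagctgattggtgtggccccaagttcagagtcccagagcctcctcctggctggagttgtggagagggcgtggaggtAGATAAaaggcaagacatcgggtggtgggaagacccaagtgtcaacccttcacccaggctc
Armh4: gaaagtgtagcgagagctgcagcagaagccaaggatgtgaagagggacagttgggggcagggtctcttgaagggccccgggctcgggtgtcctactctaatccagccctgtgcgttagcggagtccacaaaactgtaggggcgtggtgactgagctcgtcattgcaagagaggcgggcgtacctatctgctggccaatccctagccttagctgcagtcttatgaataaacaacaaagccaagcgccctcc
Acox2: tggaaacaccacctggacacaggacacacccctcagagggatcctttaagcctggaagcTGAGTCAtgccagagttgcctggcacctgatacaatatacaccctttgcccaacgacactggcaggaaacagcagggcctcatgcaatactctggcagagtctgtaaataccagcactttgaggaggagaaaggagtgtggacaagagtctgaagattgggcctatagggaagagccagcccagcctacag
Zim1: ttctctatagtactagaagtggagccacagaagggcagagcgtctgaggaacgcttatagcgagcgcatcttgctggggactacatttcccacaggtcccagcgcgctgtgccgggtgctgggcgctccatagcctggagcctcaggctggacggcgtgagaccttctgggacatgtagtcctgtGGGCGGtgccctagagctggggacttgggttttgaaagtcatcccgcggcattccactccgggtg
Lrrtm3: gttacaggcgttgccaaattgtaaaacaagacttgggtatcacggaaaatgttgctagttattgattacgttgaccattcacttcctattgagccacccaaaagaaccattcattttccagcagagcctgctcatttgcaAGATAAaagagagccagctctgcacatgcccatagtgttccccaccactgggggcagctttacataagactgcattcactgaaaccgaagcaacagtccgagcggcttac

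The peaks sat close to these starts. The median summit over the 5 LT-HSC libraries lay 15 bp before the Lrrtm3 start, 47 bp before that of Armh4, 131 bp before those of Zim1 and Acox2 and 446 bp before that of Pdk4. The GATA motif AGATAA was in the Pdk4 and Lrrtm3 windows and in 9.99% of all 32851 windows of the table. The AP-1 motif TGANTCA was in the Acox2 window (6.75% of all) and the GC box GGGCGG in that of Zim1 (32.7% of all and 64.7% of windows whose start lay in a region held by all 9 libraries). Armh4 had no match to any of the 9. The nuclear receptor half-site AGGTCA (14.0% of all), the RUNX motif TGTGGT (14.0%), the E-box CACGTG (6.02%), the ETS motif GAGGAAGT (2.44%) and the FoxO motif GTAAACA (3.17%) had no match in any of the 5 windows, nor had TATAAA (12.4%). Of the non-coding windows that are not shown, that of Gm40822 had TATAAA and the GC box. That of Gm35922 had the GATA and AP-1 motifs. The 8 windows whose start lay in an LT-HSC-only region, non-coding genes and a second Acox2 start included, had a median GC content of 54.8% and a median ratio of observed to expected CpG of 0.425. The 8169 windows in regions held by all 9 libraries had 61.6% and 0.784, and all windows 52.4% and 0.374. With 8 windows from 7 regions, this is a description only.

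Nearly all of the remaining regions were distal. Of the 230, 18 (7.83%, 95% Wilson interval 5.01% to 12.0%, which covers counting error only) lay within 1 kb of either end of a protein-coding gene. Both numbers depend on the lists: with each list limited to its 22690 strongest peaks, 1470 regions met the rule and 13.2% lay near a gene end, and without LT-HSC WT 3 or KO 1, 922 or 379 met it (7.59% or 7.12%). The share was 51.1% among regions held by all 9 libraries and 17.9% among the 95786 regions held by 2 or more, here called analysed. It was 7.20% among the 16604 regions held by all MPP and no LT-HSC libraries. A low share was thus common to regions called only in LT-HSC and only in MPP lists. The LT-HSC lists were shorter than the MPP lists, which was not allowed for in this comparison. A start site lay within 1 kb of 13 of the 218 (5.96%, against 17.0% of all analysed regions), and the median distance to one was 30.3 kb, against 15.004 kb.

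**Figure D1:**
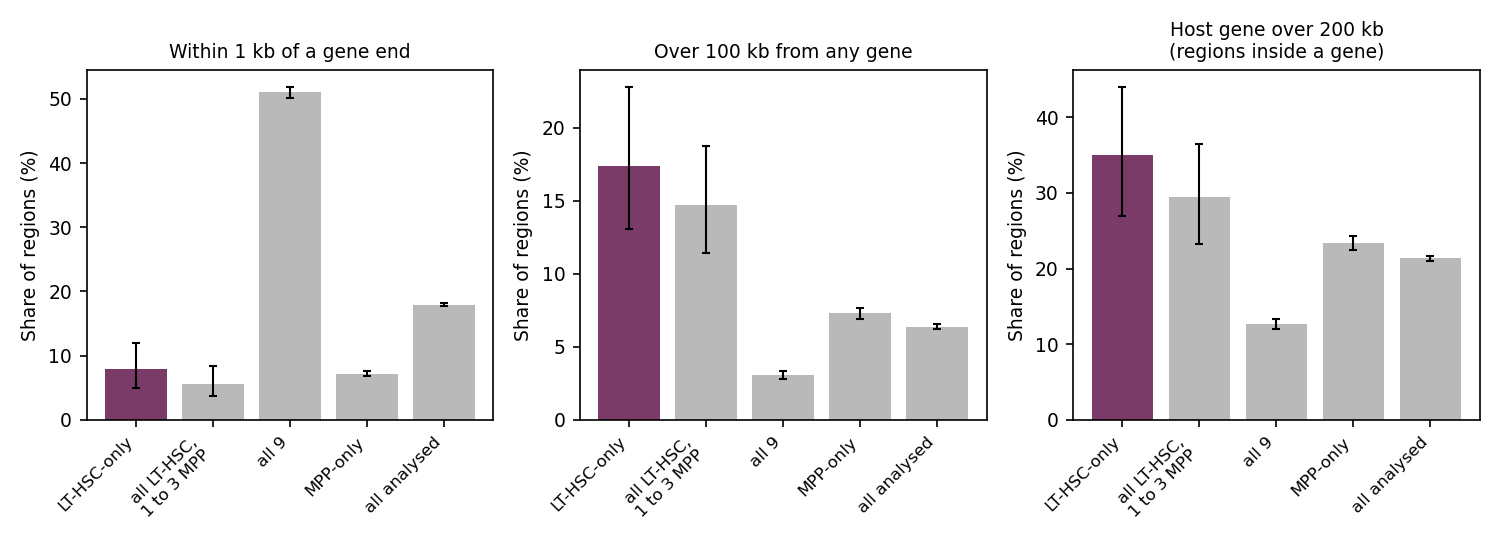
Share of regions (%, y axis) within 1 kb of a gene end, over 100 kb from any protein-coding gene, and, for regions inside a gene, in a gene over 200 kb long, for 5 kinds of region on the x axis. Bars are shares and error bars 95% Wilson intervals; the LT-HSC-only bar is low in the first panel (7.83%) and the highest of the 5 in the others (17.4% and 35.0%).

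Gene deserts and very long genes were well represented. More than 100 kb from any protein-coding gene lay 40 regions (17.4%, interval 13.0% to 22.8%), against 7.28% of MPP-only and 6.37% of all analysed regions. The most remote, on chromosome 1 (114039376 to 114039874), was 1645 kb from the nearest gene and 1587 kb from the nearest MPP peak. The next in distance were on chromosome 10 (16438369 to 16439019, 1285 kb) and chromosome 3 (21268244 to 21268871, 808 kb). Inside genes lay 117 regions (50.9%), a share like that of all analysed regions (55.9%); the table does not separate exons from introns. Their host genes had a median length of 141 kb, against 88.3 kb for MPP-only regions and 74.3 kb for all. For 41 of the 117 (35.0%) the host was longer than 200 kb, against 23.4% of MPP-only regions. The plot of positions shows that regions with a peak in all LT-HSC and 1 to 3 MPP libraries had similar shares, 14.7% in deserts and 29.4% in long genes. In the 854 regions with a peak in 4 LT-HSC and no MPP libraries, which are not plotted, the shares were higher still, at 20.5% and 46.9%. Chromosome 3 held 25 of the 230 (10.9%, against 5.26% of analysed regions) and chromosome 11, which is rich in genes, held 5 (2.17%, against 7.20%).

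The regions were of intermediate width. Their median width was 506 bp (248 to 1134 bp), against 657 bp for regions of all 9 libraries, 394 bp for all analysed and 369 bp for MPP-only regions, and 223 consisted of 1 peak in each LT-HSC list. The summits called in the 5 LT-HSC libraries spanned a median of 64 bp, close to the 56 bp of regions held by all 9. The nearest MPP peak was a median of 9.32 kb away. It was within 10 kb of 120 regions, and 42 had none within 50 kb. The nearest region held by all 9 libraries lay 67.6 kb away, and the nearest other LT-HSC-only region 2916 kb. At the other edge, 25 regions had an MPP peak within 1 kb. Among the closest were those in Chd9 (chromosome 8, 90862000 to 90862389), a chromatin remodeller gene, with an MPP peak 87 bp away, and in Snx24, a sorting nexin gene, at 110 bp. For such regions the absence of an overlapping MPP peak depends on where peak boundaries were drawn.

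Most were of middling to low strength. To compare libraries on a common footing, each of the 14498 regions with a peak in all 5 LT-HSC lists was ranked in each list by the −log10 q of its strongest peak, and percentile 100 is the strongest. The fold enrichments and q-values are the authors' own values for each peak. The median percentile of an LT-HSC-only region over the 5 libraries was 23.9 (median of 230), against 50.2 for regions of all 9 libraries and 42.3 for those of them away from gene ends. Of the 230, 35 had a median above 50 and none above 90, and 41 were under 10. The median fold enrichment of the regions was 6.86 in KO 1, 10.7 in KO 2, 15.4 in KO 4, 10.8 in WT 2 and 5.35 in WT 3. For all 14498 regions it was 7.61, 11.6, 16.1, 13.4 and 8.67.

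The strongest were spread over deserts and genes of many kinds. At the top stood a region on chromosome 18 (4813730 to 4814233), 106 kb from the nearest gene, at percentiles 84.8, 88.9 and 82.9 in KO 1, KO 2 and KO 4 and 86.1 and 75.1 in WT 2 and WT 3. Its fold enrichment was 18.7 ± 5.10 (SD, n = 5 libraries). Second was a region inside Cavin2 (chromosome 1, 51300121 to 51300800), which encodes a coat protein of caveolae made in platelets and endothelium. It stood at percentiles 95.7, 97.7 and 83.0 in the KO and 63.8 and 68.4 in the WT libraries, with a fold enrichment of 17.4 ± 4.01 (SD, n = 5). The third, 32.7 kb from Mcm9 (chromosome 10, 53503304 to 53503887), a helicase gene of DNA repair, stood at 94.5, 94.2 and 81.1 against 76.9 and 68.7. In these 3 all libraries were in the upper part of their rankings, whatever the genotype. The same held for the sixth, in a desert on chromosome 7 (77507599 to 77508032), at 96.7, 94.7 and 74.9 in the KO and 60.7 and 60.9 in the WT libraries. The fourth, in a desert on chromosome 3 (151943485 to 151943989), stood at 88.5, 91.0 and 78.1 against 75.4 and 49.9. Several others of the first 10 had a WT library below percentile 50. A region near Gm15501 (chromosome 7, 93135891 to 93136497) stood at 91.2, 91.2 and 75.8 in the KO libraries, 57.0 in WT 2 and 1.32 in WT 3. One in Ank3 (chromosome 10, 69611749 to 69612324), encoding the membrane adaptor ankyrin-G, stood at 76.3, 81.0 and 72.3 against 45.8 and 24.8. One in Sema6d (chromosome 2, 124616679 to 124617184), encoding a semaphorin, stood at 87.4, 86.2 and 70.7 against 27.9 and 37.6. A desert on chromosome 18 (start 16273520, 96.3, 96.0 and 67.1 against 32.2 and 36.9) and the gene Mllt3 complete the first 10.

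**Figure D2:**
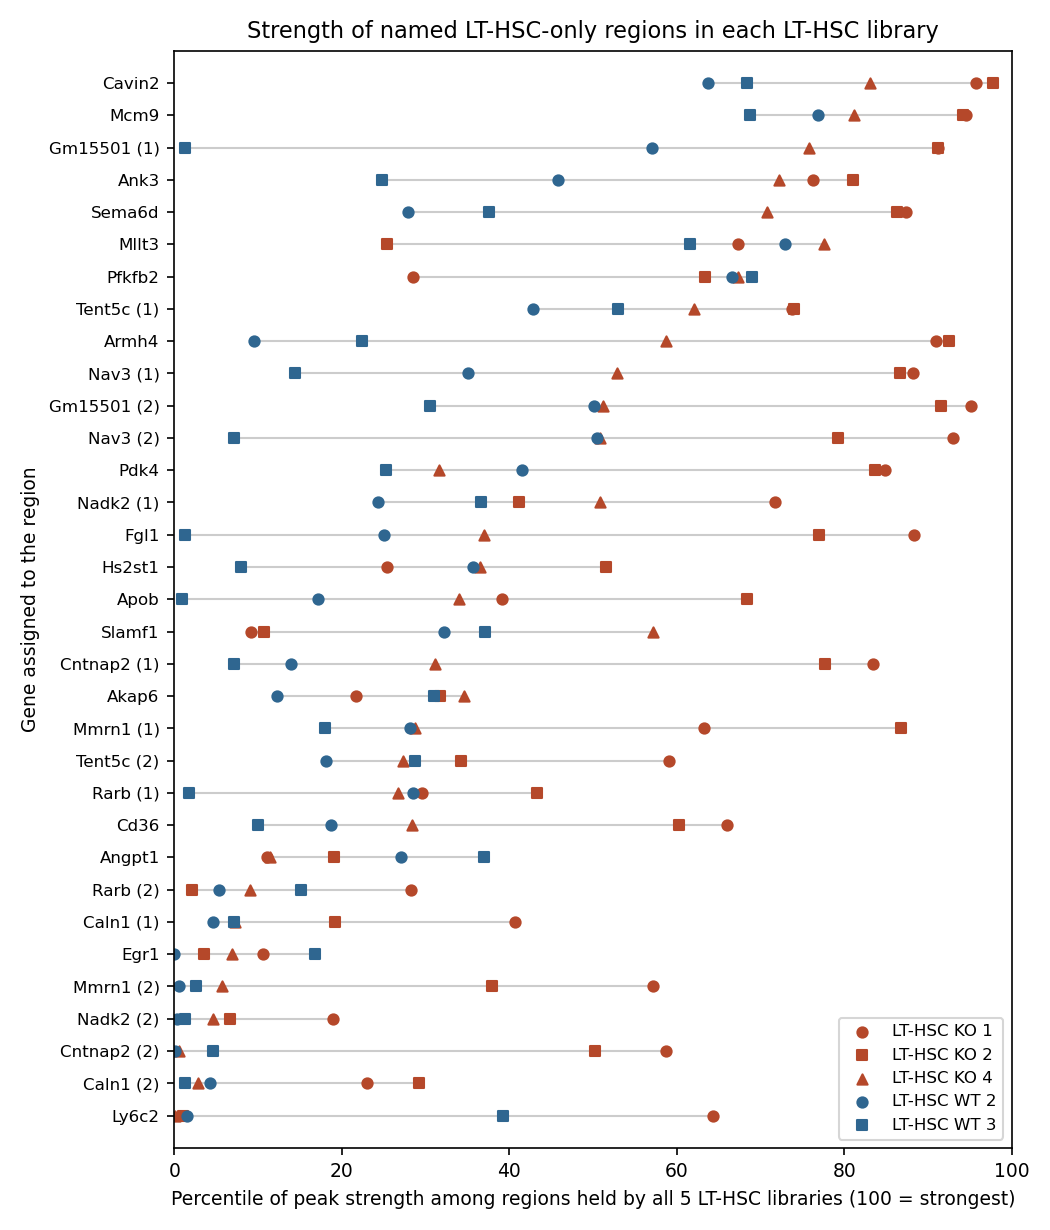
Percentile of peak strength (x axis, 100 is the strongest of the 14498 regions held by all 5 LT-HSC libraries) of named LT-HSC-only regions, labelled by gene (y axis) and ordered by their median, with 1 point per library (red KO, blue WT). Cavin2 and Mcm9 have all 5 points to the right of percentile 60, while for Sema6d, Armh4, Nav3 and Cntnap2 the WT points lie far to the left of KO 1 and KO 2; Angpt1 has both WT points to the right of all KO points.

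Of the 182 genes assigned, 8 had 2 regions each. Around Gm15501 the analysis found 3 regions in all, 2 of them LT-HSC-only, and the MPP libraries held none of the 3. Nav3, a gene of a microtubule-guiding protein known from neurons, had 13 regions, of which the LT-HSC libraries held 11, 12, 11, 8 and 2 (KO 1, KO 2, KO 4, WT 2 and WT 3) and the MPP libraries 3 to 5. Its stronger LT-HSC-only region (chromosome 10, 109924177 to 109924592) stood at percentiles 88.2, 86.7 and 52.9 in the KO and 35.1 and 14.5 in the WT libraries. Cntnap2, a neuronal adhesion gene 2241 kb long, had 22 regions, of which the LT-HSC libraries, in the same order, held 11, 17, 14, 11 and 3, and MPP KO 1, KO 2, WT 1 and WT 2 held 4, 11, 8 and 10. Its stronger LT-HSC-only region (chromosome 6, 46240273 to 46240808) stood at 83.5, 77.7 and 31.2 against 14.0 and 7.10. Caln1, a neuronal calcium sensor gene, had its regions at a median percentile of 7.28 and 4.27.

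Tent5c, which encodes a poly(A) polymerase acting in B cells and erythroid cells, had LT-HSC-only regions 29.4 and 38.2 kb away (chromosome 3, starts 100438335 and 100429640). The first stood at 73.8, 74.0 and 62.0 in the KO and 42.8 and 53.0 in the WT libraries, and an MPP peak lay 188 bp from it. Nadk2, the mitochondrial NAD kinase gene, had 2 inside the gene, at a median percentile of 41.1 and 4.60. Mmrn1, encoding multimerin, a protein stored in platelets and endothelium, had 1 region 8.68 kb outside (chromosome 6, 60935426 to 60935856) and 1 inside. The first stood at 63.2, 86.8 and 28.8 against 28.1 and 18.04. Of the 8 regions of Mmrn1, MPP KO 1 and KO 2 held 5 and 4, and MPP WT 1 and WT 2 held 1 each.

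Of 349 different genes in 19 lists, chosen with earlier results of these data known, 12 had an LT-HSC-only region. HSC identity genes had 5 (2.17% of the 230, against 0.339% of analysed regions and 0.317% of the regions of all LT-HSC libraries), at 4 of 25 genes. Mllt3, a regulator of stem cell self-renewal, had a region inside the gene (chromosome 4, 87823165 to 87823947) at percentiles 67.3, 25.5 and 77.6 in KO 1, KO 2 and KO 4 and 73.0 and 61.6 in WT 2 and WT 3. Slamf1, encoding the stem cell marker CD150, had one inside (chromosome 1, 171773133 to 171773731) at 9.16, 10.7 and 57.1 against 32.2 and 37.1. Angpt1, whose product binds Tie2 and favours quiescence, had one 6.96 kb outside (chromosome 15, 42683675 to 42684201) at 11.1, 19.1 and 11.4 against 27.1 and 36.9. At Mllt3 and Slamf1 a KO library (KO 2 or KO 1) was the lowest, and another KO library (KO 4) was the highest. At Angpt1 all KO libraries lay below both WT ones. The limma test gave unadjusted p = 0.571, 0.432 and 0.104 at the 3 genes. Rarb, the retinoic acid receptor beta gene, had 2 inside the gene (chromosome 14, starts 16613955 and 16500813). The stronger stood at 29.6, 43.3 and 26.7 against 28.5 and 1.79, and the other at 28.2, 2.104 and 9.07 against 5.29 and 15.2.

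The retinoid list had no other such region, so 1 of its 20 genes was represented, and neither Rxra nor Rxrb had one. The list of RXR partner receptors and their targets had 2 of 24 genes, Pdk4 and Cd36, which encodes a fatty acid transporter. The region at the start of Pdk4 stood at 84.9, 83.7 and 31.6 in the KO and 41.5 and 25.3 in the WT libraries, and the Cd36 region (chromosome 5, 17821409 to 17821958) at 66.0, 60.3 and 28.4 against 18.7 and 10.1. Pdk4 also belongs to the quiescence list, whose other gene with a region was Egr1, an immediate early transcription factor gene. Its weak region (chromosome 18, 34864823 to 34865849) overlapped an end of the gene, with the midpoint 0.38 kb outside. It stood at 10.6, 3.61 and 6.96 against 0.0241 and 16.8. The lists of lipid and mitochondrial metabolism (Nadk2 and Pdk4), megakaryocytes and platelets (Mmrn1), mature myeloid cells (Ly6c2) and the neuronal and hepatic control (Apob) had 1 or 2 genes each. The Ly6c2 region stood at 64.3, 1.03 and 0.0586 against 1.58 and 39.3, and that of Apob at 39.1, 68.4 and 34.0 against 17.2 and 0.938. The lists of myeloid priming, lymphoid priming, cell cycle, MYC network, MYC target, interferon and inflammation, T cell, B cell, and stromal and endothelial genes had 0 of 230. In the regions held by all MPP and no LT-HSC libraries, those same lists had 46, 44, 35, 17, 19, 44, 14, 9 and 34 of 16604. Each of these lists had only 0.0345% to 0.223% of all analysed regions. A count of 0 among 230 is near such shares and does not show that these genes lack LT-HSC-only regions more than others.

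Among the regions near a gene end, the 6 strongest were at Pfkfb2, Armh4, Pdk4, Fgl1, Hs2st1 and Akap6. Pfkfb2, encoding a regulator of glycolysis, had a region (chromosome 1, 130728039 to 130728502) at 28.6, 63.3 and 67.3 in the KO and 66.6 and 68.99 in the WT libraries. Armh4 (chromosome 14, 49782999 to 49783621), shown above with its sequence, stood at 90.9, 92.5 and 58.7 against 9.51 and 22.5. Fgl1 (chromosome 8, 41217765 to 41218403), encoding a secreted fibrinogen-like protein, stood at 88.3, 77.0 and 37.0 against 25.0 and 1.32. Hs2st1, a heparan sulfate sulfotransferase gene, and Akap6, a gene of a kinase anchor protein, had medians of 35.7 and 31.1. KO and WT libraries overlapped at Pfkfb2, Pdk4, Hs2st1 and Akap6 and did not at Armh4 and Fgl1, where KO was higher. KO stood above WT without overlap in 43.9% of the 230 regions and in 16.5% of all 14498.

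The comparison of KO with WT LT-HSCs asked whether loss of the receptors goes with the strength of these regions. No region passed the test. As a group the LT-HSC-only regions nevertheless ranked higher in the KO libraries, with a median percentile over the 230 of 37.1 in KO 1, 36.5 in KO 2 and 27.9 in KO 4, against 16.3 in WT 2 and 14.3 in WT 3. The mean percentile was higher in KO for 197 of the 230, where 48.1% of all 14498 regions were higher, and the median difference was 15.5 points, against −0.885 for all. In 101 regions (43.9%) all 3 KO libraries stood above both WT libraries, against 16.5% of all regions, and in 4 all stood below, against 15.6% of all regions. Without the library labelled KO 4, 183 had a higher mean in KO (47.6% of all regions) with a median difference of 17.7 points (−1.27 for all). In 143 both KO libraries then stood above (31.9% of all) and in 19 below (35.2% of all).

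**Figure D3:**
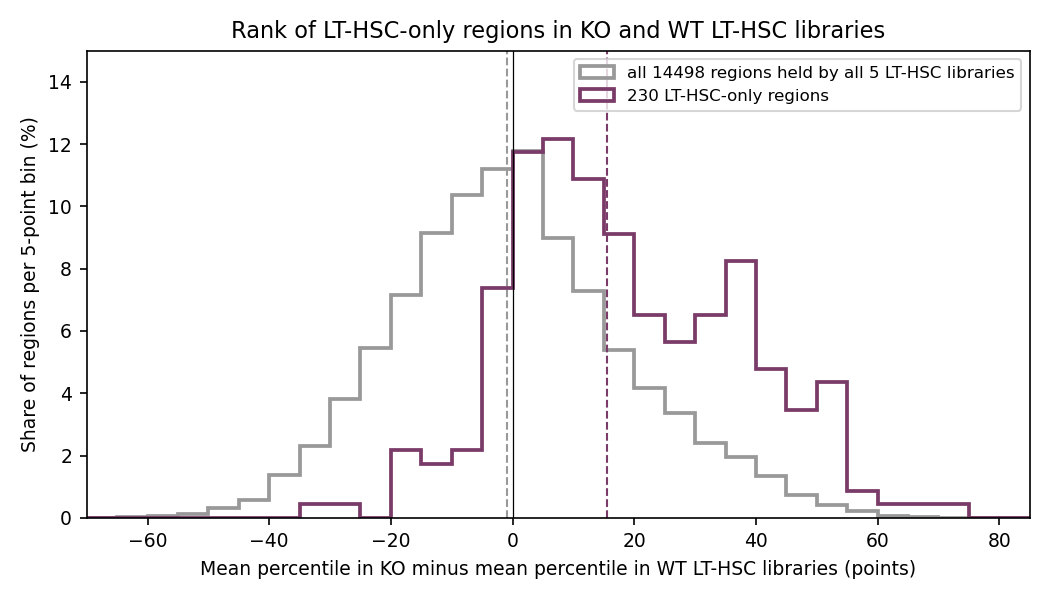
Distribution of the mean percentile in the 3 KO minus the mean in the 2 WT LT-HSC libraries (x axis, points) as the share of regions per 5-point bin (y axis, %), for the 230 LT-HSC-only regions and for all 14498 regions held by all 5 LT-HSC libraries. Dashed lines are medians, at 15.5 and −0.885 points; most of the LT-HSC-only distribution lies to the right of 0.

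Ranks were turned into normal scores, whose unit is 1 standard deviation over regions. Tested on these by limma over all 14498 regions, 0 of 230 were called at an adjusted p under 0.05 (background 0% of all regions, smallest adjusted p = 0.373). At unadjusted p under 0.05, 78 were higher and 1 was lower in KO, against 7.7% and 4.81% of all regions. The count of 78 became 48 without KO 1 (3.97% of all regions), 44 without KO 2 (2.92%), 47 without WT 2 (4.56%) and 28 without WT 3 (1.98%). Without the library labelled KO 4 it became 116 (19.4% of all regions), and 87 of 230 passed the adjusted limma test (37.8%, 86 higher and 1 lower in KO), against 21% of all regions (11.7% higher and 9.3% lower). The calls thus rest on whether that library is counted. It was singled out by percentiles of these same regions, as the KO library nearest to WT. Leaving it out raised the calls over all regions as well, so the 87 are no separate support for a genotype difference.

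Distal regions as a whole also ranked higher in the KO libraries, though in a smaller share. Of the 7359 regions of all 5 LT-HSC libraries away from gene ends, 58.2% had a higher mean in KO, and in 23.1% all KO libraries stood above both WT libraries. For the 212 LT-HSC-only regions away from gene ends these shares were 86.3% and 45.8%. For the 360 regions with a peak in all LT-HSC and 1 to 3 MPP libraries, near gene ends or not, they were 78.3% and 39.7%. Without the library labelled KO 4 they were 54.1% and 35.8% for distal regions as a whole, 80.2% and 62.7% for the LT-HSC-only ones and 71.1% and 54.7% for those 360. Regions of all 9 libraries near gene ends leaned the other way, with 37.3% higher in KO.

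Single regions among those with the smallest unadjusted p in each direction illustrate the range. A desert region on chromosome 9 (90565025 to 90565420) stood at 91.6, 81.5 and 61.8 in the KO and at 4.27 and 4.58 in the WT libraries, a difference of 2.56 ± 0.40 score units (SE, n = 3 and 2; limma adjusted p = 0.373). When peaks were ranked by fold enrichment in place of q, this was the 1 region of all 14498 (0.0069%) that passed (limma adjusted p = 0.00904). A desert region on chromosome 14 (105647208 to 105647659) stood at 68.5, 71.8 and 38.5 against 3.23 and 7.10. The limma unadjusted p of these 2 regions was 0.000108 and 0.000831, and in the other direction it was larger. A desert region on chromosome 6 (50890674 to 50891263) stood at 1.37, 6.13 and 35.7 against 40.5 and 42.7 (limma unadjusted p = 0.0493). The Angpt1 region came next (limma unadjusted p = 0.104). A desert region on chromosome 3 (102366189 to 102366658) stood at 8.72, 15.8 and 30.2 against 43.8 and 24.7 (limma unadjusted p = 0.202). Of the 5 regions of HSC identity genes, 2 of them in Rarb, 2 had a higher and 3 a lower mean in KO, and whether they differ from the other regions was not tested. Both regions of Mmrn1 and those of Cd36 and Apob had all KO libraries above both WT libraries, as had 43.9% of the 230 and 16.5% of all regions. At the Mmrn1 region outside the gene the gap was small, with KO 4 at 28.8 and WT 2 at 28.1.

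Just inside the rule, the 3 weakest regions by median percentile were 30.5 kb from Vmn1r77 (0.507) and in deserts on chromosomes 12 and 9 (0.686 and 0.710). Just outside it, 854 regions had a peak in 4 LT-HSC and no MPP libraries. The missing library was WT 3 for 692 of these, KO 1 for 149, KO 2 for 8, WT 2 for 5 and KO 4 for 0. On the MPP side, 93 regions had a peak in all 5 LT-HSC libraries and 1 MPP library. That library was MPP KO 2 for 51, KO 1 for 29, WT 2 for 9 and WT 1 for 4. The median percentile of the 93 in LT-HSCs was 32.2 and the median fold enrichment of their MPP peak 5.20. Another 117 had a peak in 2 MPP libraries, and these were both KO libraries for 87, both WT libraries for 2 and 1 of each for 28. Of the 150 missing from a single MPP library, 134 were missing from a WT library.

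The genotype of the MPP library thus differed along the series from regions absent in LT-HSCs to those present in all. Of regions with 1 MPP library and no LT-HSC library, 43.9% were held by a KO library (4890 of 11130). The share was 67.8%, 72.9%, 74.1% and 79.3% with 1, 2, 3 and 4 LT-HSC libraries and 86.0% with all 5 (80 of 93, 95% Wilson interval 77.5% to 91.6%, counting error only; 51 of the 80 came from MPP KO 2). Of regions with 2 MPP libraries, those held by both KO libraries were 13.9% with no LT-HSC library and 74.4% with all 5, and those held by both WT libraries 35.1% and 1.71%. The MPP KO lists hold 78189 and 86353 peaks and the WT lists 85471 and 80451. In lists cut to the 22690 strongest peaks each, the KO share was 84.2% for regions of all LT-HSC libraries (224 of 266) and 32.7% for those of none, and without each LT-HSC library in turn it was 80.3% to 86.0%. With 2 libraries against 2, no two-sided exact permutation test over MPP libraries can go below p = 0.333, and none was run.

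**Figure D4:**
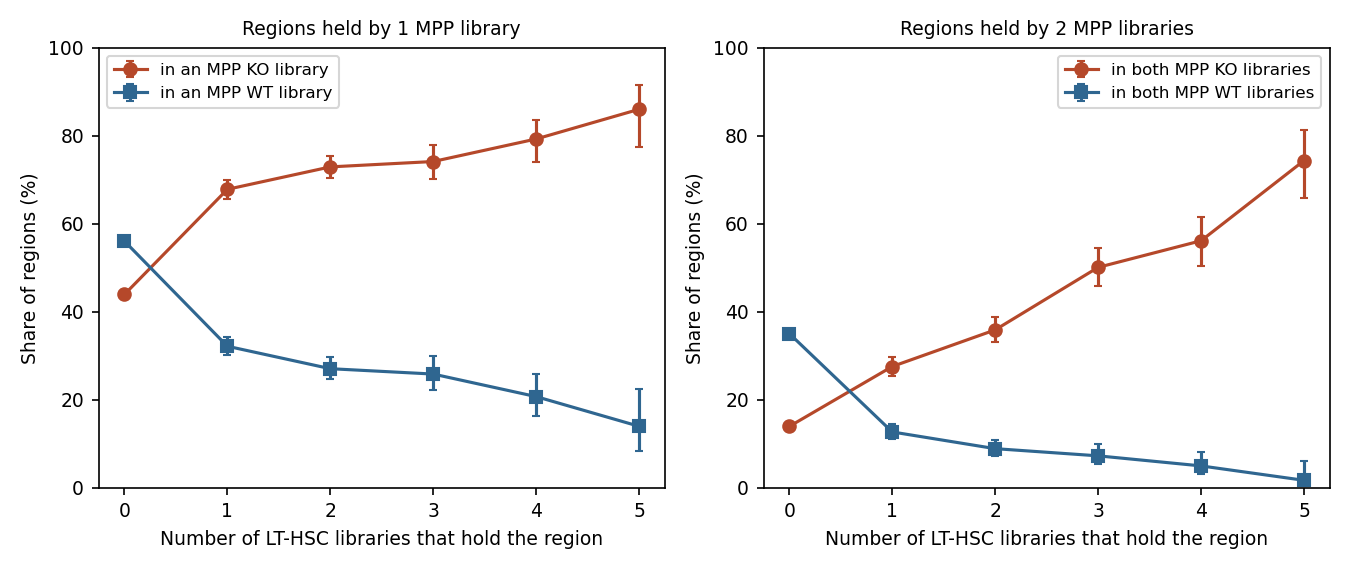
Share of regions (y axis, %) held by KO or by WT MPP libraries, among regions with 1 MPP library (left) and with 2 MPP libraries (right), by the number of LT-HSC libraries that hold the region (x axis). Points are shares and bars 95% Wilson intervals; the KO share climbs from 43.9% to 86.0% on the left and from 13.9% to 74.4% on the right, while that of WT libraries declines in both panels.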

How the data were processed

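Each of the 9 libraries has 1 deposited peak list, called separately. Peaks were called with MACS2 2.1.1 on mm10, per the submitters' processing notes. The deposited values are a fold enrichment (a ratio), −log10 p-values and q-values, and a display score that was not used. Tn5 shifting and duplicate filtering are not stated there. The lists hold no counts, so depth is unknown.

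Overlapping peaks were merged as described in the report. A region was assigned to the protein-coding gene (21900 in RefSeq's GRCm38.p6, the build that mm10 represents) that contains its midpoint, or else the nearest within 100 kb. Percentiles were turned into normal scores and fitted with limma 3.58.1 (R 4.3.3), KO against WT, over all 14498 regions, with Benjamini-Hochberg adjustment. Tested on simulated data of 14498 regions, this fit recovered 33% of 100 regions shifted by 1.5 score units and 96% of 100 shifted by 3. It also called 5 regions that had not been shifted. In the deposited lists a difference of 2.56 score units did not pass (limma adjusted p = 0.373). The simulated shares may thus not carry over to those lists.

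Regions were named by rule: the 10 strongest, genes with 2, up to 3 genes per list, the 6 strongest near a gene end, the 3 farthest from genes, the 3 per direction with the smallest p, the 3 weakest and the 3 closest to an MPP peak. Some items that this rule names are not reported here. The regions, gene lists and this rule were chosen with earlier results of these data known. Alternatives changed the ranking value, the peak threshold, the merging, the list length and the libraries. The lists cover chromosomes 1 to 19. The start site table covers all of these but chromosome 18, which holds 12 of the 230 regions. Sequence was read only from the RefSeq windows.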

Additional observations from a re-analysis of the deposited data

How the results depend on the processing

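The number of LT-HSC-only regions was 1470 in lists of equal length and ran from 230 to 922 when each library in turn was left out, with 379 when KO 1 and 922 when WT 3 of the LT-HSCs was dropped. It stayed within 1.5 times with summit-based regions (331), a −log10 q of at least 3 (225) and no MPP peak within 1 kb (205). The share near gene ends was 13.2% in lists of equal length, where more regions qualify, and 7.12% to 7.95% without single libraries. The median percentile ran from 22.0 to 28.1 without single LT-HSC libraries and was 33.7 when ranked by fold enrichment. For KO against WT, ranking by fold enrichment gave 1 call among all regions, which was 1 of the 230, and 2 regions with all KO libraries below both WT libraries in place of 4. Without single LT-HSC libraries the calls ran from 0 to 3044 among all regions and from 0 to 87 among the 230, with calls only without KO 4. Leaving out a library also eases complete separation: 111 to 143 regions then had all KO libraries above WT and 6 to 19 all below, while the shares over all regions were 19.1% to 31.9% and 17.8% to 35.2%. Regions at unadjusted p under 0.05 and higher in KO ran from 28 to 116 of the 230 (12.2% to 50.4%) and from 1.98% to 19.4% of all regions. With 1 WT library left, its spread is assumed to equal that of the KO libraries. The cause of these movements was not tested. The KO share at the MPP edge of the rule, an alternative chosen after seeing the data, stayed between 80.3% and 86.5%. No paired analysis was possible because LT-HSC KO and WT libraries share only replicate number 2.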

Other observations

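Of the regions with a peak in all 5 LT-HSC libraries and in MPP libraries of 1 genotype only, 167 were held by KO and 15 by WT MPPs. Of the 167, 5 were assigned to genes of the lists, and 3 of these genes belong to retinoid or RXR pathways. A region inside Aldh1a1 (chromosome 19, 20614177 to 20614718), which makes retinoic acid from retinal, one inside Tgm2 (chromosome 2, 158141838 to 158142446), a transglutaminase gene induced by retinoic acid, and one inside Vdr (chromosome 15, 97865121 to 97865673), the vitamin D receptor gene, were each held by 1 KO MPP library. A region beside Btg2 (chromosome 1, 134072960 to 134073607), an antiproliferative gene, and one near Ifngr1 (chromosome 10, 19582199 to 19582609), an interferon gamma receptor gene, were held by both. Of the 15 held by WT MPPs, 2 were assigned to list genes, which are not named here. These counts are small and have no test, so they do not tie the regions of either genotype to a pathway.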
